A study of Punica granatum with 14 samples.

Results

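Leaf transcriptomes of pomegranate (Punica granatum, cultivar Hongmanao) seedlings treated with paclobutrazol were compared with those of seedlings treated with B9, at the doses both chemicals shared. The comparison holds 8 of the 14 RNA-seq libraries of the series: paclobutrazol at 6 and 8 mg/L and B9 at 6 and 8 mg/L, with 2 plants for each chemical and dose. The doses match by mass, not by number of molecules. The other libraries are 4 from mannitol (2.5 and 15 g/L) and 2 from CK, the control given distilled water. They do not enter the contrast, but they helped to estimate the spread between replicates. All plants were wild type, derived from stem tips, grown in culture on a medium with the auxin IBA and sampled at 90 days. IBA was thus present in every group, and leaves were the only tissue sequenced. Members were taken by treatment label alone, so no measured value chose the libraries.

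Gibberellins are plant hormones that drive stem elongation, and both chemicals are growth retardants that lower their synthesis. Paclobutrazol is a triazole that blocks ent-kaurene oxidase, a cytochrome P450 that acts early in the pathway. B9 (daminozide) is a hydrazide of succinic acid that blocks 2-oxoglutarate-dependent dioxygenases, which make the active gibberellins at the end of the pathway. Genes are given by the symbols of the count table. No table used here links those symbols to gene products, so gene functions are not described and the leaf label was not checked against marker genes.

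The 8 libraries held between 15790717 and 28385703 counts in genes, and 19478 of 27893 genes passed the filter on low counts. The libraries of the 2 plants given 6 mg/L paclobutrazol were the least alike of the 4 pairs. Their log2 values correlated at 0.904 across genes, against 0.967 for the pair given 8 mg/L paclobutrazol and 0.965 and 0.964 for the B9 pairs at 6 and 8 mg/L. The first 6 mg/L paclobutrazol plant correlated at 0.886 to 0.918 with the other 7 libraries. Counts of DEGs are therefore also given without each of these libraries.

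Over both doses, 1211 of 19478 genes differed between paclobutrazol and B9, which is 6.22% of the genes tested. DEGs are genes that differed by more than 2-fold (1 on the log2 scale) with an adjusted p below 0.05 in edgeR's quasi-likelihood test. Under paclobutrazol 724 of them (3.72%) were higher and 487 (2.50%) lower. The median log2 fold change over all genes tested was −0.02 and the median SE was 0.24. TMM scaling centres these values, so the median cannot show whether the transcriptome shifted as a whole. The number of DEGs depended on single libraries. It was 1888 without the first and 1982 without the second 6 mg/L paclobutrazol plant, and 634 without the first 8 mg/L paclobutrazol plant. It was 804 and 696 without the first and the second 6 mg/L B9 plant, and 764 and 626 without the first and the second 8 mg/L B9 plant.

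A total of 605 genes (3.11% of those tested) parted the chemicals at both doses. These genes were DEGs over both doses, differed by more than 2-fold in the same direction at 6 and at 8 mg/L, and had all 4 paclobutrazol libraries beyond all 4 B9 libraries. Libraries without overlap were more common than that. All 4 paclobutrazol libraries lay above all 4 B9 libraries in 1538 genes (7.90%) and below them in 1554 genes (7.98%). Of the 605 genes, 371 (1.90%) were higher and 234 (1.20%) were lower under paclobutrazol. The rule asked for no adjusted p at a single dose. Among the 371, 240 were DEGs at 6 mg/L, 76 at 8 mg/L, 71 at both doses and 126 at neither. Among the 234, the counts were 101, 46, 35 and 122 in the same order. The higher genes had a median log2 fold change of 1.86, and 166 of them exceeded 4-fold. The lower genes had a median of −1.98, and 114 of them exceeded 4-fold. When libraries were scaled by their total counts alone, 303 genes were higher and 290 were lower. The excess of higher genes thus depended on the scaling, which moved the median of all genes to −0.10. With a plant left out, fewer libraries had to lie apart, so the rule was looser and the genes were chosen anew. The count of 605 was 914 and 911 without the first and the second 6 mg/L paclobutrazol plant, 365 without the first 8 mg/L paclobutrazol plant and 372 without the second 8 mg/L B9 plant.

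**Figure D1:**
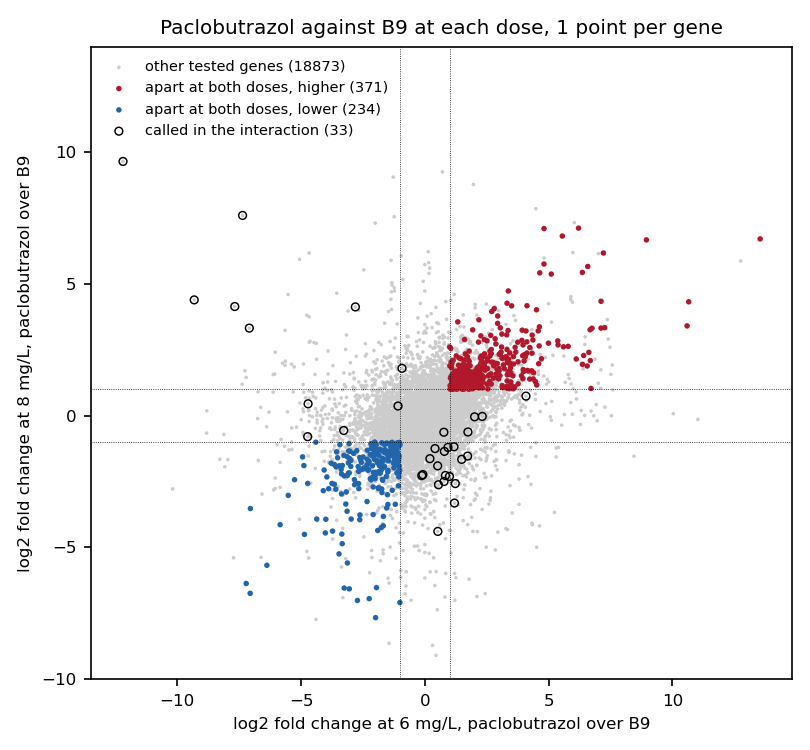
Log2 fold change of paclobutrazol over B9 at 6 mg/L (horizontal axis) and at 8 mg/L (vertical axis), 1 point per gene tested, with dotted lines at 2-fold. The 371 higher and the 234 lower genes lie in opposite corners by the rule that chose them, and open circles mark the 33 genes whose difference changed with dose.

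The next genes were those with the smallest adjusted p among the 605, with 12 taken in each direction. LOC116188207 was high under paclobutrazol alone. It had 202 and 225 CPM (counts relative to the TMM-scaled library total) at 6 mg/L and 209 and 219 CPM at 8 mg/L paclobutrazol, against 95.4 and 76.3 CPM at 6 mg/L and 80.5 and 101 CPM at 8 mg/L B9. The libraries of each chemical were close to each other, and the CK plants, at 80.7 and 70.8 CPM, lay with those of B9. Its log2 fold change over B9 was 1.27 ± 0.13 (SE, adjusted p = 0.00118, edgeR). Compared to CK it was 1.49 higher under paclobutrazol on the log2 scale (adjusted p = 0.00726), and its value of 0.22 under B9 did not pass the test (adjusted p = 0.313).

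LOC116201476 rose under both chemicals compared to CK, and much further under paclobutrazol. It had 409 and 225 CPM at 6 mg/L and 111 and 137 CPM at 8 mg/L paclobutrazol. B9 gave 25.3 and 47.2 CPM at 6 mg/L and 27.7 and 25.7 CPM at 8 mg/L, and CK gave 15 and 14 CPM. The higher paclobutrazol values were those of the lower dose. The log2 fold change over B9 was 2.67 ± 0.25 (adjusted p = 0.00118), and those over CK were 3.77 under paclobutrazol and 1.10 under B9 (adjusted p = 0.00402 and 0.041, edgeR).

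LOC116186958 and LOC116215657 moved away from CK in opposite directions. LOC116186958 had 78.2 and 94.5 CPM at 6 mg/L and 36.5 and 40.6 CPM at 8 mg/L paclobutrazol, against 7.58, 9.43, 8.97 and 10.2 CPM under B9. The CK plants had 16.3 and 22.6 CPM, above every B9 library and below every paclobutrazol library. LOC116215657 had 234, 216, 393 and 307 CPM under paclobutrazol, against 37.7, 47.3, 39.2 and 55.3 CPM under B9 and 130 and 140 CPM in CK. The log2 fold changes of paclobutrazol over B9 were 2.68 ± 0.20 for LOC116186958 and 2.65 ± 0.21 for LOC116215657 (SE, adjusted p = 0.000725 and 0.000804, edgeR).

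In 5 of the 12 higher genes, the departure from CK that passed the test was a fall under B9. These were LOC116213211, LOC116188451, LOC116214189, LOC116202565 and LOC116197168, with log2 fold changes of B9 over CK of −2.06, −2.26, −1.41, −1.60 and −1.45. In LOC116202565 the value of paclobutrazol over CK was 1.26 and narrowly missed the test (adjusted p = 0.051, edgeR). The most abundant of them, LOC116213211, had 551, 357, 387 and 325 CPM under paclobutrazol, against 57.2, 34.1, 86.1 and 75.1 CPM under B9 and 295 and 210 CPM in CK. LOC116188451 had 20.7 and 16.1 CPM at 6 mg/L and 11.4 and 6.68 CPM at 8 mg/L paclobutrazol, against 1.43, 1.63, 2.06 and 2.59 CPM under B9 and 9.68 and 8.39 CPM in CK. The paclobutrazol plants thus bracketed CK in this gene, and all 4 B9 plants were below it. The other 3 of the 12, LOC116209709, LOC116210803 and LOC116192126, were DEGs in neither comparison with CK, because no change passed 2-fold. Over CK they were 0.71, 0.81 and 0.65 higher under paclobutrazol on the log2 scale (adjusted p = 0.0301, 0.0491 and 0.0285, edgeR). Under B9 their values over CK were −0.977, −0.998 and −0.526 (adjusted p = 0.00875, 0.0187 and 0.0337, edgeR). Their log2 fold changes of paclobutrazol over B9 were 1.69, 1.81 and 1.18.

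Among the 12 lower genes, 4 were DEGs that fell under paclobutrazol compared to CK. LOC116205543 had 1.15, 1.67, 2.04 and 2.51 CPM under paclobutrazol, against 15.3, 8.68, 7.75 and 8.01 CPM under B9 and 10.6 and 12.1 CPM in CK. LOC116203731 had 17.3 and 8.89 CPM at 6 mg/L and 33.0 and 27.1 CPM at 8 mg/L paclobutrazol, against 147, 167, 80.1 and 149 CPM under B9 and 84.8 and 104 CPM in CK. In LOC116205543, LOC116203731 and a further gene, LOC116188505, the B9 plants did not pass the test compared to CK, with log2 fold changes of −0.22, 0.50 and 0.22. Over B9, the log2 fold changes of paclobutrazol were −2.44 ± 0.22, −2.75 ± 0.28 and −2.46 ± 0.26 (SE, adjusted p = 0.00116, 0.00124 and 0.00124, edgeR). The fourth, LOC116187316, was also raised under B9 and is described with the genes that moved in opposite directions.

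A further 5 of the 12 lower genes were DEGs compared to CK only under B9, where they rose. LOC116201352 was near absent under paclobutrazol and in CK. It had 0.488, 0.333, 0.249 and 0.198 CPM under paclobutrazol, against 18.02, 6.39, 4.26 and 6.24 CPM under B9 and 0.554 and 0.196 CPM in CK. LOC116211528 followed the same order, with 2.71, 3.50, 2.69 and 4.10 CPM under paclobutrazol, against 37.9, 40.2, 27.0 and 14.1 CPM under B9 and 3.99 and 5.53 CPM in CK. In both genes the paclobutrazol and CK ranges met or overlapped, whereas every B9 library was higher. The log2 fold changes of paclobutrazol over B9 were −4.68 ± 0.46 and −3.13 ± 0.27 (SE, adjusted p = 0.00118 and 0.000935, edgeR). LOC116211382, LOC116192325 and LOC116210203 had log2 fold changes over B9 of −1.60, −1.93 and −1.65, and their values under B9 compared to CK were 1.75, 2.78 and 1.52. LOC116192325 was also above CK under paclobutrazol, by 0.84 (adjusted p = 0.0437, edgeR), which is short of 2-fold. LOC116211535, LOC116192212 and LOC116187617 were DEGs in neither comparison with CK and had log2 fold changes over B9 of −1.44, −1.26 and −1.22. No change from CK passed 2-fold in these genes. Under B9 their values over CK were 0.96, 0.51 and 0.72 (adjusted p = 0.0101, 0.0471 and 0.0177, edgeR). Under paclobutrazol they were −0.48, −0.75 and −0.51 (adjusted p = 0.0644, 0.0219 and 0.0521, edgeR).

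**Figure D2:**
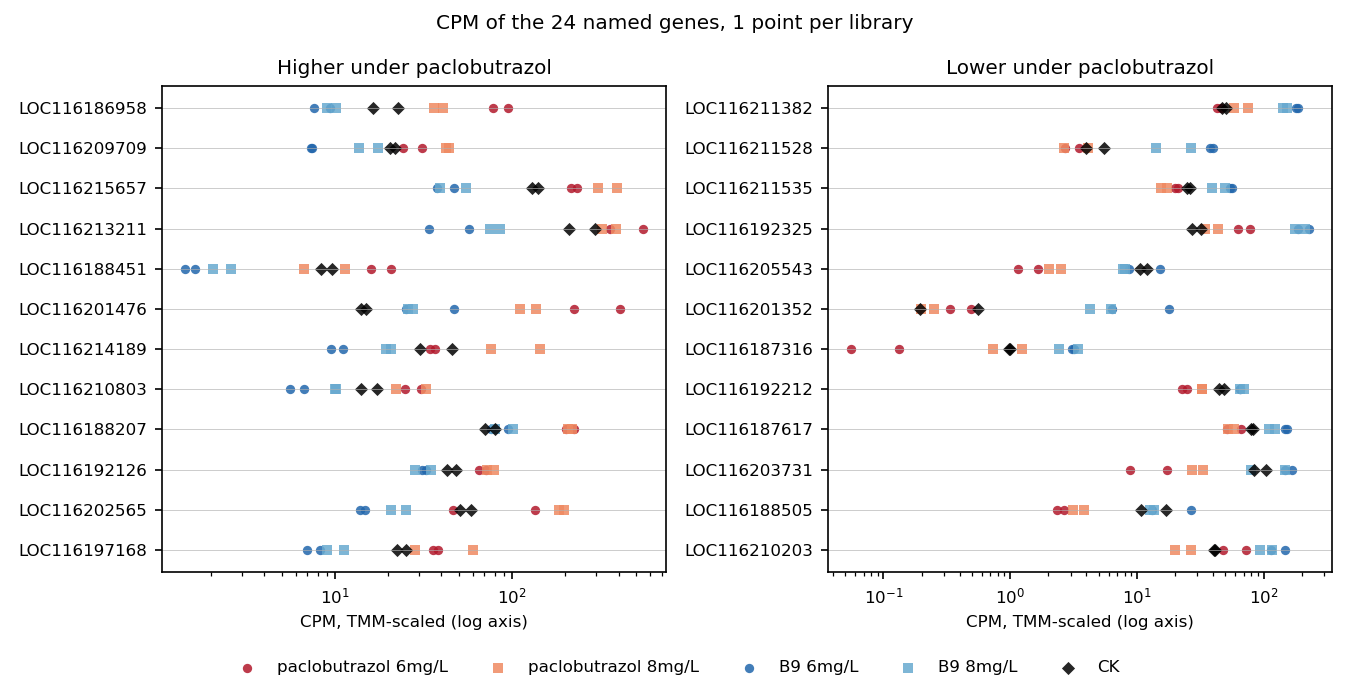
CPM of the 12 higher (left) and 12 lower (right) genes with the smallest adjusted p, on a log axis, 1 point per library, for both paclobutrazol doses, both B9 doses and CK. The paclobutrazol and B9 points do not overlap in any row, which the choice of genes required, and the CK points lie with paclobutrazol in some rows (LOC116201352), with B9 in others (LOC116188207) and between them in LOC116186958.

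Compared to CK, the 605 genes fell into those that were DEGs under B9, those that were DEGs under paclobutrazol and those that were DEGs under neither. Genes of the last class can pass the adjusted p and miss 2-fold, as LOC116209709 did under both chemicals. Of the 371 higher genes, 72 were DEGs in paclobutrazol against CK alone, 150 in B9 against CK alone, 3 in both in opposite directions, 4 in both in the same direction and 142 in neither. Of the 234 lower genes, the counts were 46, 80, 1, 3 and 104 in the same order. Over the whole transcriptome, 5.57% of genes were DEGs in paclobutrazol against CK (2.91% higher, 2.66% lower) and 8.51% in B9 against CK (3.70% higher, 4.81% lower). These comparisons share the CK plants and use the treated plants that chose the 605 genes, so the counts describe the lists and test nothing. They moved with nearly every plant left out, and no order of the chemicals can be read from them. With a plant left out, both lists were chosen anew, so the counts that follow are not of the 371 and 234 genes. Without the first 6 mg/L paclobutrazol plant, 195 higher and 192 lower genes were DEGs under paclobutrazol alone, against 170 and 81 under B9 alone. Without the second, the counts were 72 and 78 under paclobutrazol alone, against 253 and 203 under B9 alone. The lowest counts were 18 and 12 under paclobutrazol alone, without the second 8 mg/L paclobutrazol plant, and 54 and 32 under B9 alone, without the second 8 mg/L B9 plant.

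The median log2 fold change of the 371 higher genes was 0.80 for paclobutrazol over CK and −1.15 for B9 over CK. For the 234 lower genes the medians were −0.67 and 1.26. Over all genes tested the medians were 0.02 and 0.01. The mean of CK lay between those of the chemicals in 244 of the 371 and 132 of the 234 genes. It was nearer to paclobutrazol than to B9 in 202 of the 371 and 142 of the 234. Mannitol, a sugar alcohol that retards growth by osmotic means, was nearer to B9 in 242 of the 371 higher genes and 151 of the 234 lower genes.

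**Figure D3:**
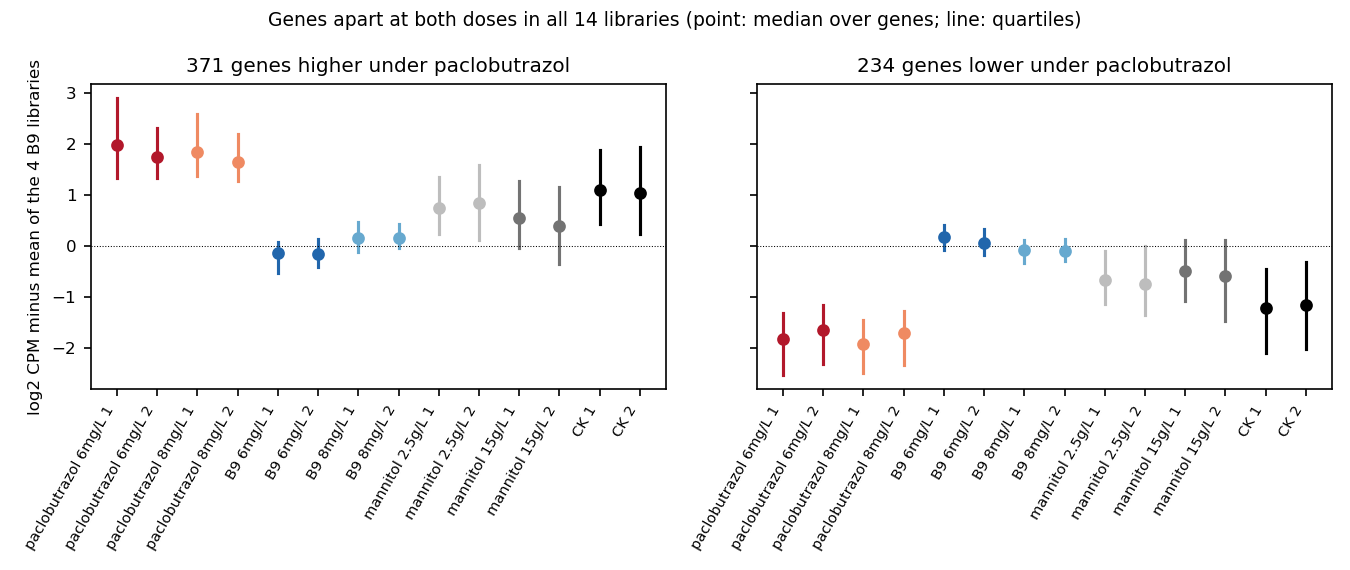
Log2 CPM minus the mean of the 4 B9 libraries for the 371 higher (left) and the 234 lower genes (right) in each of the 14 libraries, with points for medians over genes and lines for quartiles. The medians of the paclobutrazol plants run from 1.64 to 1.97 on the left and from −1.93 to −1.64 on the right, those of the mannitol plants from 0.40 to 0.85 and from −0.74 to −0.50, and those of CK from 1.04 to 1.09 and from −1.22 to −1.16.

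Summed as CPM, the 371 higher genes were 2.65% to 2.90% of the TMM-scaled library total in the paclobutrazol libraries. They were 0.729% to 0.913% in the B9 libraries and 1.41% to 1.54% in CK. The 234 lower genes were 0.365% to 0.675% under paclobutrazol, against 1.57% to 2.08% under B9 and 0.646% to 0.715% in CK. The rule that chose both lists fixed the direction of these differences between the chemicals. Of the 100 most abundant genes, 3 (3%) were among the 605, close to the share over all genes tested. The most abundant was LOC116200037, a lower gene whose plants varied widely. It had 275 and 2255 CPM at 6 mg/L and 295 and 601 CPM at 8 mg/L paclobutrazol, against 3956, 2347, 3447 and 2926 CPM under B9 and 222 and 219 CPM in CK. One paclobutrazol plant thus came close to the lowest B9 plant. LOC116189582 was the most abundant higher gene, with 2049, 3139, 1544 and 3065 CPM under paclobutrazol, against 775, 618, 654 and 876 CPM under B9 and 808 and 329 CPM in CK.

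The 4 genes that were DEGs in opposite directions compared to CK were LOC116186958 and LOC116215657, described above, LOC116210418 and LOC116187316. LOC116210418 had 45.2, 18.8, 115 and 31.3 CPM under paclobutrazol, against 0.276 and 0.132 CPM at 6 mg/L and 10.02 and 4.36 CPM at 8 mg/L B9, and 6.28 and 6.04 CPM in CK. The B9 plants at 8 mg/L lay on either side of CK, and those at 6 mg/L were far below it. LOC116187316 was the reverse case, with 0.133 and 0.0556 CPM at 6 mg/L and 1.24 and 0.727 CPM at 8 mg/L paclobutrazol, against 3.22, 3.09, 3.46 and 2.43 CPM under B9 and 0.997 and 0.980 CPM in CK. Its counts under paclobutrazol were 3, 1, 25 and 11, so its fold change rests on few counts. With dose as an additive term on the 8 libraries alone its adjusted p was 0.0718 (edgeR).

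Some of the 605 genes were near absent under 1 of the chemicals. In 17 higher genes every B9 library held at most 3 counts, and in 23 lower genes every paclobutrazol library did. Such genes could pass the filter on low counts through their high libraries alone. The share of genes this low under 1 chemical over all genes tested is not given. LOC116196999 had 2654, 241, 188 and 51 counts under paclobutrazol, against 0, 0, 1 and 2 counts under B9 and 527 and 48 counts in CK. With B9 set to 3 counts in each library, it was at least 292-fold higher under paclobutrazol, and without the first plant at 6 mg/L, which held most of that signal, the bound was 70.7-fold. LOC116192912 had 287, 21, 95 and 21 counts, against 1, 2, 2 and 1 counts under B9, and was at least 40.6-fold higher by the same measure, or 19.7-fold without that plant. Among the lower genes the largest bound was that of LOC116216082, at least 7.21-fold lower under paclobutrazol, with 3, 1, 2 and 3 counts against 46, 24, 26 and 15 counts under B9. CK was above 3 counts in both plants in 10 of the 17 and in 7 of the 23 genes.

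Some of the 605 genes were neighbours. In the RefSeq gene order, 14761 pairs of tested genes were adjacent, and both members were among the 605 with the same direction in 26 pairs, against 5 pairs with opposite directions. Of the 26 pairs, 19 were higher and 7 were lower under paclobutrazol. The share of all adjacent pairs that had the same direction is not given. Whether the 605 genes lay together more often than other genes was not tested. There were 3 runs of 3 genes, all of them higher. The run LOC116194885, LOC116194884 and LOC116194883 had log2 fold changes of 2.88, 3.33 and 3.27. LOC116194884 had 69.9, 99.9, 35.9 and 17.1 CPM under paclobutrazol, against 4.41, 6.44, 4.09 and 4.16 CPM under B9 and 37.5 and 27.3 CPM in CK. The CK plants lay within the range of paclobutrazol and above B9 in this gene. The run LOC116213095, LOC116213096 and LOC116213211 had log2 fold changes of 2.91, 2.46 and 2.73, and the run LOC116194507, LOC116194924 and LOC116196626 had 2.91, 3.84 and 3.39. Reads that mapped to more than 1 location were removed before counting, so counts of neighbours that are near-identical copies of each other are uncertain.

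**Figure D4:**
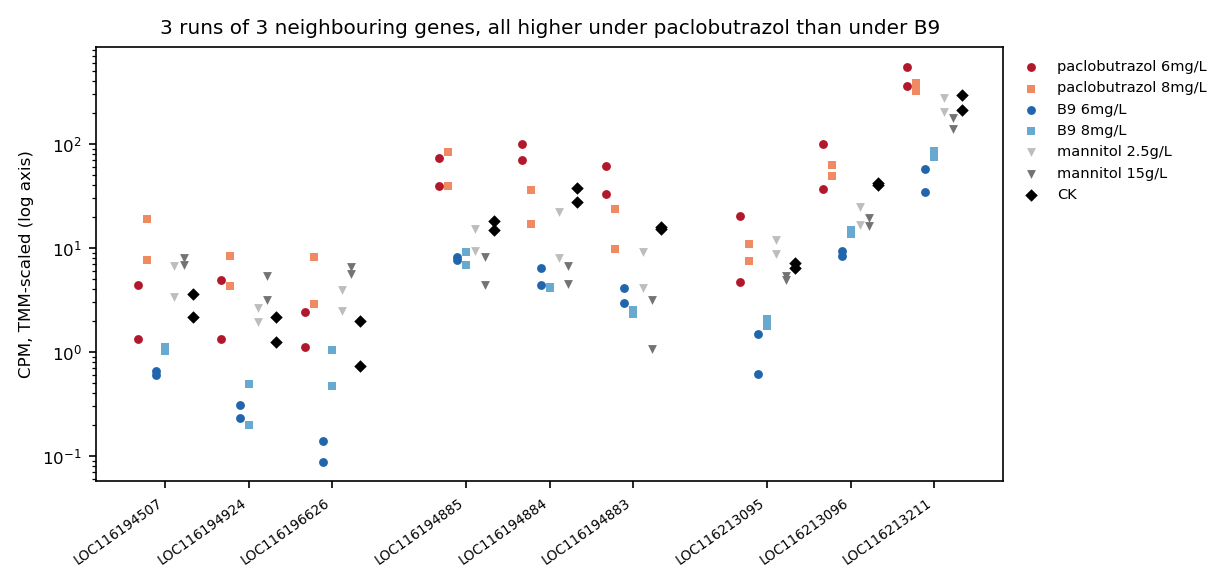
CPM on a log axis of the 9 genes in the 3 runs of adjacent genes, in the order of the runs, 1 point per library and a symbol per treatment. In each gene the 4 paclobutrazol points lie above the 4 B9 points, and in LOC116194884 the CK plants, at 37.5 and 27.3 CPM, lie within the paclobutrazol range.

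Of 18534 protein-coding genes tested, 3.01% were among the 605, with 348 higher and 210 lower under paclobutrazol. Of 869 long non-coding RNAs, the share was 5.18%, with 23 higher and 22 lower, and the difference between the shares was not tested. LOC116194010 had 10.4, 10.3, 4.03 and 9.85 CPM under paclobutrazol, against 1.20, 0.926, 1.502 and 1.41 CPM under B9. LOC116205839 had 0.532 and 0.333 CPM at 6 mg/L and 2.09 and 3.11 CPM at 8 mg/L paclobutrazol, against 7.63, 7.23, 11.1 and 10.5 CPM under B9. Their log2 fold changes were 2.76 ± 0.32 and −3.07 ± 0.39 (SE, adjusted p = 0.00175 and 0.00242, edgeR). Small nucleolar RNAs, which guide chemical changes of ribosomal RNA, mostly had negative values. Of the 55 tested, 50 had a negative log2 fold change, the median was −0.85, and 3 were DEGs, all lower. Over all genes tested 51.6% were negative, and the 3 DEGs are 5.45% of the class, close to the 6.22% over all genes. Their summed level was 32.5, 63.3, 53.4 and 78.6 CPM under paclobutrazol, against 74.7, 94.7, 80.8 and 90.2 CPM under B9 and 37.9 and 42.8 CPM in CK, so the ranges of the chemicals overlapped. The log2 fold changes of the 11 ribosomal RNA genes tested were also all negative, with a median of −0.62. Their summed level was 588, 1432, 1283 and 1255 CPM under paclobutrazol, against 680, 1502, 1892 and 1938 CPM under B9 and 615 and 704 CPM in CK. The part of RNA or library quality in these non-coding classes was not tested. The 371 higher genes spanned a median of 2052 bases and the 234 lower genes 2888 bases, compared with 3104 bases over all genes tested. The part of gene length in the fold changes was not tested beyond removing the trend with length, after which 605 genes were again apart at both doses, 532 of them shared.

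As contrasts at each dose within the fit over all 14 libraries, 892 genes (4.58%) differed at 6 mg/L and 304 genes (1.56%) at 8 mg/L. At 6 mg/L, 589 genes (3.02%) were higher and 303 (1.56%) lower under paclobutrazol, and at 8 mg/L 118 (0.606%) were higher and 186 (0.955%) lower. Scaled by total counts alone, the split at 6 mg/L was 494 higher and 455 lower. The contrasts at the 2 doses compare different libraries but share the estimate of the spread. Of the 118 genes higher at 8 mg/L, 109 (92.4%) were also higher at 6 mg/L, with a median log2 fold change there of 1.36, and 72 were DEGs there. For the 186 lower genes at 8 mg/L, the direction was kept at 6 mg/L in 125 (67.2%), with a median of −0.42, and 35 were DEGs there. With a plant left out, the DEGs at 8 mg/L were found anew, so these sets were no longer the 118 and 186 genes. In such sets, 73.9% of the higher genes had that direction at 6 mg/L without the second 6 mg/L paclobutrazol plant. For the lower genes the share was 49.6% without the first 6 mg/L B9 plant. Over all genes tested, 63.4% had the same direction at both doses, and the fold changes correlated across genes at r = 0.33 and rho = 0.37.

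In the other direction, 534 of the 589 genes higher at 6 mg/L (90.7%) were also higher at 8 mg/L, and 262 of the 303 lower genes (86.5%) were also lower. The second 6 mg/L paclobutrazol plant differed from the first in the genes lower at 8 mg/L. Of these 186 genes, 136 were below the mean of the 6 mg/L B9 plants in the first plant (73.1%) and 103 in the second (55.4%). Over all genes tested the shares were 50.7% and 51.0%, so the second plant was close to the background. In the genes higher at 8 mg/L, each plant was above that mean in 108 of 118 (91.5%), against 49.2% and 49.0% over all genes tested. Counts at a single dose rest on 2 plants against 2. At 6 mg/L they were 2004 and 3430 without the first and the second paclobutrazol plant, and 173 and 46 without the first and the second B9 plant. At 8 mg/L they were 1 and 15 without the first and the second paclobutrazol plant, 5 and 15 without the first and the second B9 plant, and 1209 and 1222 without the first and the second 6 mg/L paclobutrazol plant.

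The difference between the chemicals changed with dose in 33 genes (0.169%; edgeR's test of the interaction), while 1942 genes (9.97%) had an unadjusted p below 0.05. None of the 605 genes was among the 33, which the rule for the 605 nearly fixed. That rule asks for the same direction at both doses. The direction differed between doses in 9 of the 11 genes more positive at 8 mg/L and 19 of the 22 more negative. In 22 of the 33 (0.113% of genes tested) the fold change was more negative at 8 mg/L. In 18 of these 22, both 8 mg/L paclobutrazol plants lay below the other 6 libraries. The choice of genes more negative at 8 mg/L favours that order, and its share over all genes tested is not given. LOC116190271 had 73.1 and 131 CPM at 6 mg/L and 5.03 and 4.76 CPM at 8 mg/L paclobutrazol, against 45 and 43.9 CPM at 6 mg/L and 43.5 and 54.2 CPM at 8 mg/L B9. Only the plants given 8 mg/L paclobutrazol were low in this gene, and CK had 72.6 and 42.1 CPM. LOC116204653 had 18.3 and 16.7 CPM at 6 mg/L and 2.74 and 2.71 CPM at 8 mg/L paclobutrazol, against 12.7, 11.2, 15.9 and 17.7 CPM under B9. LOC116200168 had 80.8, 96.7, 18.4 and 15.0 CPM, against 70.1, 53.8, 67.8 and 57.2 CPM under B9. The 3 genes share the low pair at 8 mg/L paclobutrazol, with adjusted p of 0.0124, 0.0124 and 0.0137 for the interaction. All 3 lost the call with edgeR on the 8 libraries alone (adjusted p = 0.0964, 0.0964 and 0.197). They also lost it, at adjusted p of 0.0526 to 0.0982, without either 8 mg/L paclobutrazol plant, without the second 6 mg/L B9 plant and without either 8 mg/L B9 plant.

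In 11 genes (0.0565%) the fold change was more positive at 8 mg/L, and in the leading ones the chemicals crossed. LOC116187053 had 0 and 0 counts at 6 mg/L and 344 and 327 counts at 8 mg/L paclobutrazol, against 398 and 750 counts at 6 mg/L and 0 and 1 counts at 8 mg/L B9. CK had 335 and 359 counts and the mannitol plants 254 to 319, so the gene had at most 1 count in both plants of 1 dose of each chemical and was well covered in every other plant. LOC116189014 had 6 and 6 counts at 6 mg/L and 51 and 62 counts at 8 mg/L paclobutrazol, against 51 and 43 counts at 6 mg/L and 6 and 4 counts at 8 mg/L B9. LOC116190357 had 1 and 2 counts at 6 mg/L and 69 and 62 counts at 8 mg/L paclobutrazol, against 133 and 607 counts at 6 mg/L and 2 and 9 counts at 8 mg/L B9. The adjusted p of the interaction was 4.6e-05, 0.0124 and 0.0161 for the 3 genes (edgeR). LOC116187053 kept its call under every alternative run. With edgeR on the 8 libraries alone, LOC116189014 and LOC116190357 lost theirs (adjusted p = 0.159 and 0.197). Both also lost it without the second 8 mg/L paclobutrazol plant, the second 6 mg/L B9 plant or either 8 mg/L B9 plant, and LOC116190357 without the first 8 mg/L paclobutrazol plant, at adjusted p of 0.0528 to 0.101. The number of genes with an interaction was 345 and 2726 without the first and the second 6 mg/L paclobutrazol plant. It was 2 and 1 without the first and the second 8 mg/L paclobutrazol plant, 1 without the second 6 mg/L B9 plant, and 1 without either 8 mg/L B9 plant.

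**Figure D5:**
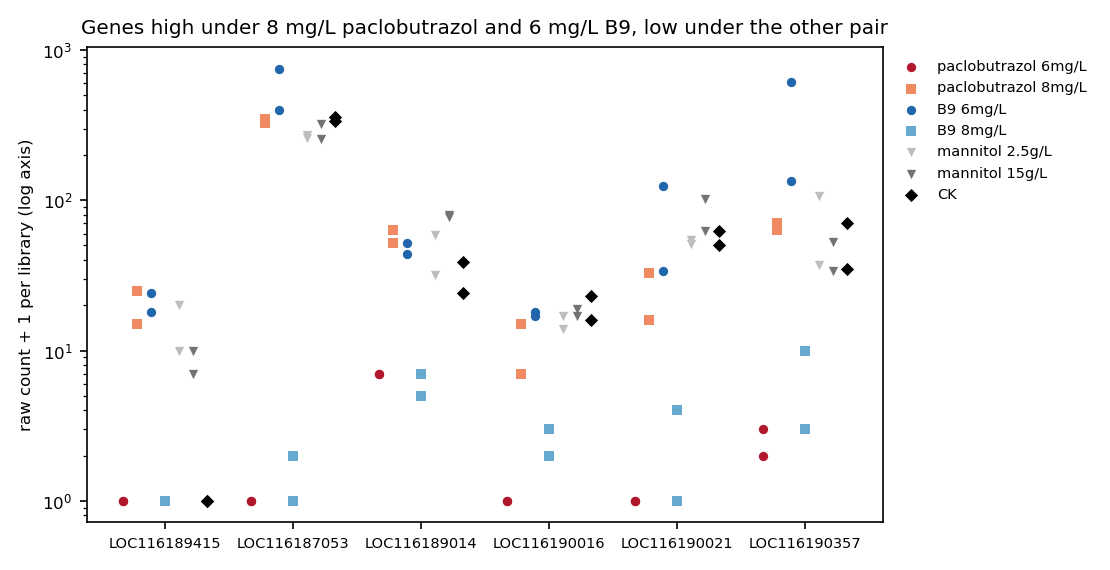
Raw count plus 1 on a log axis for 6 genes that were high under 8 mg/L paclobutrazol and 6 mg/L B9 and low under the other pair, 1 point per library for all 7 conditions. LOC116187053 is at 0 or 1 count in the low pair and at 254 counts or more in every other library, and LOC116189415 is at 0 in CK as well.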

How the data were processed

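Bulk RNA-seq was performed on leaves of 14 seedlings, 1 library per plant and 2 plants per condition, sampled at 90 days. Libraries were made from total RNA with a NEBNext Ultra kit. The authors aligned reads with HISAT2 to a published pomegranate genome and discarded multi-mapping reads. The deposited values are raw counts per gene that the authors obtained with featureCounts. The name of the genome assembly, tool versions and the strand setting are not given in the sources used here. Totals were 15790717 to 28385703 counts per library; low totals widen the error of weakly expressed genes. No pair of libraries held identical values.

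Groups followed the sample labels. Genes were kept by filterByExpr (minimum count 10) and scaled by TMM in edgeR 4.0.16 (R 4.3.3). Quasi-likelihood F-tests were fitted to 7 condition means over all 14 libraries, with 7 residual degrees of freedom and Benjamini-Hochberg adjustment over 19478 genes. The contrast was the mean of both paclobutrazol doses minus the mean of both B9 doses. SE was the log2 fold change divided by the root of F. Thresholds were 1 on the log2 scale and 0.05 for adjusted p. Genes named were the 12 in each direction with the smallest adjusted p among those apart at both doses, up to 3 interaction genes in each direction, every member of sets of 5 or fewer, and examples of other classes chosen after their values were seen. The comparison, the lists and the rules were chosen with earlier results of these data known. Biotype, gene span and gene order came from RefSeq (ASM765513v2), which matched 27546 symbols and left 347 unmatched. Lists by pathway, marker genes and promoter motifs were not analysed here. Alternatives included DESeq2 1.42.0, other scalings and filters, a removed length trend, a replicate block and each library left out. Leaving out libraries for the fold bounds was chosen after seeing the data. The scripts were tested on simulated data.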

Additional observations from a re-analysis of the deposited data

Results flagged for a closer look

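The difference between paclobutrazol and B9 depended on dose in 33 genes by the test of the interaction. As the log2 fold change at 8 mg/L minus that at 6 mg/L, the named genes had values of 21.85 (LOC116187053), 11.82 (LOC116190357), 6.94 (LOC116189014), −4.51 (LOC116190271), −3.17 (LOC116204653) and −2.42 (LOC116200168). The values of LOC116187053 and LOC116190357 were fitted on libraries at or near 0 counts, depend on the prior count and give no bound.

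In 5 of the 48 groups of 4 libraries formed by the 24 named genes and the 2 chemicals, 1 plant stood far from the other 3. Chance gives about 1 in 20, and each group mixes 2 doses. All 5 were the highest of the B9 plants: LOC116201476 at 47.2 CPM, LOC116205543 at 15.3 CPM, LOC116201352 at 18.02 CPM, LOC116192212 at 70.5 CPM and LOC116188505 at 26.8 CPM. In LOC116205543, LOC116201352 and LOC116188505 this was the same plant, the first at 6 mg/L B9. It was the second 6 mg/L B9 plant in LOC116201476 and the second 8 mg/L B9 plant in LOC116192212. In LOC116192212 the other 3 B9 plants were at 65.2, 65.5 and 65.1 CPM, so the gap was small in size. In the lower genes, the high plant adds to the difference from paclobutrazol, and in LOC116201476 it reduces it.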

How the results depend on the processing

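All 24 named genes kept their direction under the 20 alternatives, and all kept their call except LOC116187316 under the additive dose term. Of the 6 named interaction genes, 5 lost their call under 5 or 6 alternatives. The 24 genes were chosen for separated libraries and small adjusted p in these same data, so their direction was nearly fixed beforehand. Counts of DEGs moved far more. With edgeR on the 8 libraries alone the count was 530 over both doses, 336 apart at both doses, 39 at 6 mg/L, 0 at 8 mg/L and 1 for the interaction. The 0 at 8 mg/L stood beside 1516 genes past 2-fold with an unadjusted p below 0.05 in edgeR and 799 DEGs by DESeq2 on the 8 libraries. DESeq2 on those libraries gave 308 for the interaction, and on all 14 it gave 1721 at 6 mg/L, 1101 at 8 mg/L and 405 for the interaction. The adjusted p alone gave 2660 over both doses and 1978 apart. An additive dose term gave 461, leaving out both 6 mg/L paclobutrazol libraries gave 2155, and removing the length trend gave 465 at 8 mg/L and 65 for the interaction. The causes were not tested. With a replicate left out, the rule for genes apart at both doses was looser, because fewer libraries had to lie apart. Leaving out 1 replicate gave 626 to 1982 over both doses, 365 to 914 apart, 46 to 3430 at 6 mg/L, 1 to 1222 at 8 mg/L and 1 to 2726 for the interaction, with the lone plant assumed to vary like other groups.

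Replicate numbers were shared across conditions, but with 2 numbers and correlations of the replicate difference of 0.05 to 0.39 they were not taken to pair the plants. With a replicate block the counts were 1126, 568, 859, 238 and 34, in the order above. Alternatives for gene lists and promoter motifs were not run. With 2 plants per condition, p-values weigh each difference against a spread between replicate plants. In the main fit that spread was estimated over all 14 libraries, CK and mannitol included, and drew in part on other genes.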

Other observations

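The crossed pattern of LOC116187053 was looked for in all 27893 genes by a rule set after seeing it, namely a lowest CPM in the high pair of at least 0.25 and more than 4-fold above every library of the low pair. It held in 6 genes with 8 mg/L paclobutrazol and 6 mg/L B9 high, and in 2 genes the other way. The same rule gave 13 genes with paclobutrazol over B9 at both doses, 12 with B9 over paclobutrazol at both doses, 0 with 6 over 8 mg/L and 1 with 8 over 6 mg/L. Besides the 3 genes already given, the 6 were LOC116189415, LOC116190016 and LOC116190021. LOC116190021 had 0 and 0 counts at 6 mg/L and 32 and 15 counts at 8 mg/L paclobutrazol, against 33 and 124 counts at 6 mg/L and 0 and 3 counts at 8 mg/L B9, with 49 and 61 counts in CK. LOC116189415, a long non-coding RNA, had 0 and 0 counts at 6 mg/L and 24 and 14 counts at 8 mg/L paclobutrazol, against 17 and 23 counts at 6 mg/L and 0 and 0 counts at 8 mg/L B9, with 0 and 0 counts in CK.

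The 2 genes of the other kind were LOC116196803, a long non-coding RNA, and LOC116187109. LOC116196803 had 205 and 172 counts at 6 mg/L and 10 and 9 counts at 8 mg/L paclobutrazol, against 11 and 30 counts at 6 mg/L and 300 and 292 counts at 8 mg/L B9. The mannitol plants split in this gene, with 10 and 160 counts at 2.5 g/L and 5 and 4 counts at 15 g/L, and CK had 185 and 239 counts. In LOC116187109 the CK plants themselves differed, with 138 and 15 counts.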
